A study of Mus musculus with 8 samples.

Results

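The zinc finger genes described here were the rows of the gene count table whose name is Zfp followed by digits alone and whose mean estimated count over the 8 libraries was at least 100. They were selected on that mean count and on the name, and the rule itself took no account of genotype. The gene set was, however, chosen with earlier results of these data known. The rule gave 216 members among 315 rows with such a name and 11911 listed genes, and the other 99 fell under a mean of 100. *Zfp825*, *Zfp677* and *Zfp563* lay just inside the limit, with mean counts of 100.4, 100.9 and 102.4, and *Zfp58*, *Zfp235* and *Zfp808* lay just outside it, with 98.6, 97.4 and 97.2. All 216 members passed the filter on low counts, which left 11317 genes to be tested.

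RNA sequencing of total RNA depleted of ribosomal RNA was done on induced regulatory T cells (iTregs), which are CD4+ T cells driven to express the transcription factor Foxp3 in culture. Naive CD4+ T cells from spleens of C57BL/6J-background mice were kept for 36 hours with anti-CD3, anti-CD28, TGF-β and antibodies to IL-4 and IFN-γ. The control group (WT, n = 4 libraries) came from Foxp3YFP-Cre mice and the knockout group (KO, n = 4 libraries) from Tdrd3 fl/fl/Foxp3YFP-Cre mice, so both carry the Cre transgene in the *Foxp3* locus and only KO carries the floxed *Tdrd3* alleles. TDRD3 is a Tudor-domain protein that reads methylated arginine and acts as a transcriptional coactivator. Cre driven from *Foxp3* deletes *Tdrd3* only in cells that have begun to transcribe *Foxp3*, a sort for YFP+ cells ahead of RNA isolation is not stated, and the age of these mice is not given in the sources used here. The methods give 3 biological replicates from independent mice per group, whereas labels and table hold 4.

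Most Zfp-named genes encode proteins with tandem C2H2 fingers, in which a pair of cysteines and a pair of histidines hold a zinc ion so that each finger can contact a few bases of DNA. Many also carry a KRAB box, which recruits TRIM28 (KAP1) and through it SETDB1 and HP1 proteins to silence chromatin, above all at transposable elements. KRAB zinc finger genes arose by tandem duplication, lie in clusters and change quickly between species, whereas members without KRAB include old, conserved regulators of transcription, RNA and ribosomes.

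The first finger of 6 members is shown with the codons for the zinc-binding cysteines and histidines in capitals, read 5′ to 3′ on the coding strand. *Zfp281*, *Zfp82*, *Zfp715* and *Zfp944* are shown because, apart from *Zfp608*, they had the smallest P values between genotypes. *Zfp968* and *Zfp969* are shown because reads of one can hardly be told from reads of the other. Each stretch lies within the coding part of the last exon of the canonical GENCODE vM39 transcript, on GRCm39. The Zfp281 stretch lies at chr1:136553801-136553863 on the plus strand, in exon 2 of 2. The Zfp82 stretch lies at chr7:29756601-29756663 on the minus strand, in exon 7 of 7. The Zfp715 stretch lies at chr7:42948825-42948887 on the minus strand, in exon 5 of 5. The Zfp944 stretch lies at chr17:22558631-22558693 on the minus strand, in exon 6 of 6. The Zfp968 stretch lies at chr2:175224076-175224138 on the plus strand and the Zfp969 stretch at chr2:175485608-175485670 on the minus strand, each in exon 4 of 4.
Zfp281: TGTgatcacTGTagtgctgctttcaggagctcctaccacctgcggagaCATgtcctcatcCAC
Zfp82: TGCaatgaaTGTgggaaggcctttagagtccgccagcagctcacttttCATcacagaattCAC
Zfp715: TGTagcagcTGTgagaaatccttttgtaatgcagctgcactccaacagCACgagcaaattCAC
Zfp944: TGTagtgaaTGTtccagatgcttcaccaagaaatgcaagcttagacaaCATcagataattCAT
Zfp968: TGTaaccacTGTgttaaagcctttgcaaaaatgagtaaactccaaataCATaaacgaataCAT
Zfp969: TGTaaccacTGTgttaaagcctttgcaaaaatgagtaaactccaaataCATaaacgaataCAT
All 63 bases of the Zfp968 and Zfp969 fingers were identical, whereas those of Zfp281 and Zfp715 shared 25 of 63.

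The counts of the listed genes summed to between 13258239 and 16001676 per library, and normalized values are given as CPM, counts scaled to a common total of the tested genes. *Tdrd3*, the targeted gene, had 18.8, 15.1, 9.95 and 17.7 CPM in WT1 to WT4 and 13.7, 10.7, 12.9 and 11.1 CPM in KO1 to KO4. The library labelled WT3 thus had less *Tdrd3* RNA than every KO library, which goes against its label, and the directions below were also computed without it. Over all 8 libraries the log2 fold change of *Tdrd3* was −0.35 (SE 0.155), with an adjusted p of 0.496 in edgeR. Of the marker lists, 6 of 7 T cell genes and 6 of 6 induced Treg genes were tested. The T cell genes summed to between 1693 and 1795 CPM in WT and between 1662 and 1742 CPM in KO. An unadjusted P below 0.05 was reached by 1 of these T cell genes, beside 9.30% of all tested genes. The 6 induced Treg genes (*Foxp3* among them) summed to between 3581 and 3717 CPM in WT and between 3361 and 3476 CPM in KO. An unadjusted P below 0.05 was reached by 4 of them, beside 9.30% of all tested genes. *Foxp3* itself had a log2 fold change of −0.31 and an adjusted p of 0.152 in edgeR, and the genotypes overlapped. The 2 CD8 T cell genes summed to between 7.72 and 21.8 CPM in WT and between 6.68 and 8.35 CPM in KO, and both had an unadjusted P below 0.05. The part of these marker differences in the values of the zinc finger genes was not tested. No myeloid or erythroid marker passed the filter (0 of 6 and 0 of 3), the only B cell marker tested of 5 lay between 0.871 and 2.03 CPM, and the 2 tested of 4 NK cell genes summed to between 2.38 and 4.48 CPM. In bulk RNA, fewer cells of a type and less RNA per cell cannot be told apart.

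As a group the members differed between the 2 genotypes by less than the libraries of a genotype did among themselves. They summed to 7911, 7850, 7713 and 8035 CPM in WT1 to WT4 and to 7734, 7898, 7924 and 7921 CPM in KO1 to KO4, which is between 0.771% and 0.804% of the counts. The lowest library was WT3 and the highest WT4, and the genotypes overlapped. The log2 fold change of KO over WT had a median of 0.005 over the 216 members, beside 0.001 over all 11317 tested genes. The quartiles of the members lay at −0.06 and 0.06 on the log2 scale, and 102 of 216 were lower in KO. Compared over the members alone, 6 of 8 libraries had their nearest library (1 minus Spearman's rho) in their own genotype, the exceptions being WT2 and KO2, which were nearest to each other. Over all tested genes the count was also 6 of 8, the exceptions being WT3 and WT4, both nearest to KO2.

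At an adjusted p below 0.05 (edgeR quasi-likelihood test, Benjamini-Hochberg over the 11317 genes), 0 members were called. That test called 30 of 11317 genes, 0.265% of them, 0.203% as lower in KO and 0.0619% as higher. At an unadjusted P below 0.05, 6 members were lower in KO (2.78%, beside 4.91% of all tested genes) and 5 were higher (2.31%, beside 4.38%). With both directions together, 11 members or 5.09% had such a P, beside 9.30% of all tested genes. DESeq2 and limma with quality weights (voom) each called 1 member at an adjusted p below 0.05, *Zfp281* in both. Without the library labelled WT3, edgeR called 0 members, and 6 had an unadjusted P below 0.05 as lower in KO and 3 as higher, together 4.17% of the members beside 9.82% of all genes tested in that fit. Without KO1 and KO4, whose nearest library over all tested genes was each other and which lay farthest from the WT libraries, edgeR called 0 members, and 5 had an unadjusted P below 0.05 as lower in KO and 4 as higher. These 9 were 4.17% of the members, beside 3.91% of all genes tested in that fit, so that the members' lower share in the fit of all 8 libraries was not seen there.

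**Figure D1:**
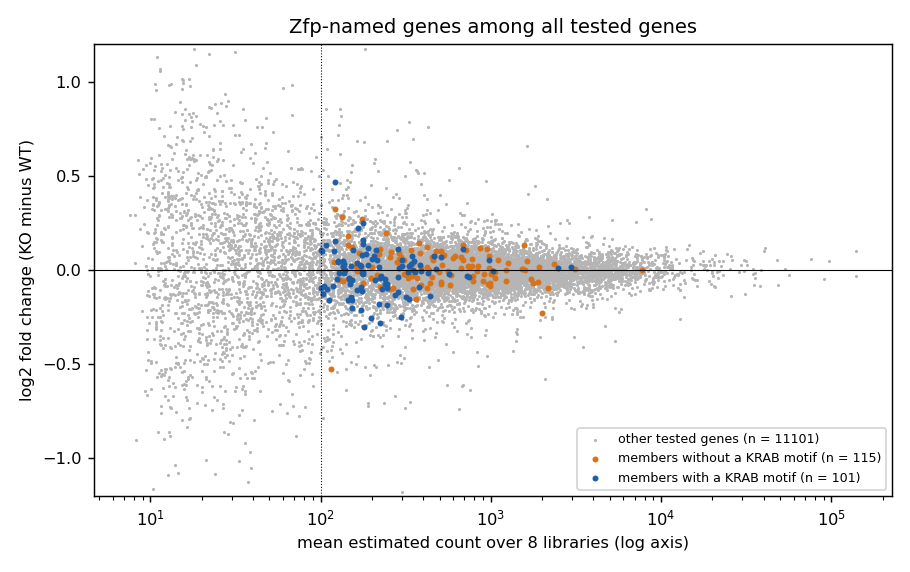
Mean estimated count over the 8 libraries (x, log axis) against the log2 fold change of KO over WT (y) for every tested gene, with members coloured by whether their protein holds a KRAB motif, the dotted line at a mean count of 100 and 22 other genes outside the plotted range of 1.2 on the log2 scale. The members lie along 0 within the band of the other genes of like count, from −0.52 for Zfp608 to 0.47 for Zfp82.

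The intervals of the differences limit how large a change in the RNA of the whole culture could have been missed. As a sort for YFP+ cells is not stated, a change within the cells that deleted *Tdrd3* was not measured apart. The 95% confidence interval of the edgeR fold change lay within 1.25-fold in either direction for 160 members (74.1%), within 1.5-fold for 210 and within 2-fold for all 216. The 6 members whose interval reached past 1.5-fold were *Zfp608*, *Zfp82*, *Zfp605*, *Zfp974*, *Zfp968* and *Zfp969*. The fold change itself was at least 1.2-fold in 7 members (3.24%) and in 9.75% of all tested genes, which include many genes of lower counts. The median mean count was nonetheless lower over the members, 295 beside 537 over all tested genes. Their median standard error was larger, 0.0924 beside 0.0738. The part of this in the members' lower share of unadjusted P below 0.05 was not tested.

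Of the members lower in KO, *Zfp281* had the smallest P. It encodes a protein with C2H2 fingers that binds GC-rich promoter sequences and is known for its part in stem cell and developmental gene control, and it lies on chromosome 1 from 136552639 to 136560840 on the plus strand. *Zfp281* had 152.3, 149.2, 160.9 and 143.1 CPM in WT1 to WT4 and 118.8, 137.1, 135.4 and 126.0 CPM in KO1 to KO4. Every KO library lay below every WT library. The mean was 151.4 ± 7.39 CPM in WT and 129.3 ± 8.58 CPM in KO (SD, n = 4 each), and the log2 fold change was −0.23 (SE 0.0518). Its unadjusted P was 3.22e-04 and its adjusted p 0.0751 in edgeR (exact permutation over the libraries, two-sided p = 0.0286, which is the smallest that 4 against 4 can give). The adjusted p of *Zfp281* was 0.0145 in DESeq2 and 0.0285 in limma with quality weights. It ranged in edgeR from 0.0193 without KO2 to 0.345 without KO1 when 1 library was left out, and was 1.00 without KO1 and KO4, where the log2 fold change was −0.15.

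*Zfp608* on chromosome 18, known as a repressor of the recombination-activating genes in thymocytes, showed the largest difference of any member. It had 10.2, 9.68, 11.7 and 6.44 CPM in WT1 to WT4 and 6.10, 6.77, 5.86 and 7.67 CPM in KO1 to KO4. WT4 lay within the range of the KO libraries and the other 3 WT libraries above it. Its log2 fold change was −0.52 (SE 0.169). In edgeR the unadjusted P was 0.00583 and the adjusted p was 0.251. Without WT4 the adjusted p of *Zfp608* was 0.0354 and its log2 fold change −0.67, and without WT3 these were 0.453 and −0.41.

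The other 4 members lower in KO at an unadjusted P below 0.05 all held a KRAB motif and many fingers. *Zfp944*, with 11 fingers, had 18.5, 14.7, 18.9 and 16.1 CPM in WT1 to WT4 and 14.9, 13.8, 13.2 and 14.4 CPM in KO1 to KO4. *Zfp715*, with 18 fingers, had 23.1, 21.8, 20.7 and 24.4 CPM in WT1 to WT4 and 20.5, 15.9, 19.2 and 20.03 CPM in KO1 to KO4. Only WT2 of *Zfp944* reached into the KO range, and *Zfp715* did not overlap between genotypes. *Zfp169*, with 17 fingers, had 14.3, 13.2, 11.4 and 16.4 CPM in WT1 to WT4 and 9.73, 11.03, 11.4 and 12.7 CPM in KO1 to KO4. *Zfp27*, with 21 fingers, had 17.9, 12.7, 15.5 and 14.1 CPM in WT1 to WT4 and 13.1, 12.5, 13.7 and 11.3 CPM in KO1 to KO4. Both overlapped between genotypes, *Zfp169* through the library labelled WT3 and *Zfp27* through WT2. Their log2 fold changes were −0.28 for *Zfp944*, −0.25 for *Zfp715*, −0.30 for *Zfp169* and −0.25 for *Zfp27*, with standard errors of 0.104, 0.0947, 0.125 and 0.116. The adjusted p in edgeR was 0.366, 0.380, 0.454 and 0.512 in the same order. Exons of *Zfp944* overlap those of *Zfp758* on the opposite strand, and whether the counting used strand is not given in the sources used here.

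Of the members higher in KO, *Zfp82* and *Zfp605* had the smallest P values. *Zfp82*, which holds a KRAB motif and 12 fingers, had 7.12, 9.02, 5.47 and 6.94 CPM in WT1 to WT4 and 10.9, 8.65, 8.72 and 11.3 CPM in KO1 to KO4. *Zfp605*, with 12 fingers and no KRAB motif, had 8.01, 7.35, 7.78 and 6.94 CPM in WT1 to WT4 and 10.0, 9.34, 8.49 and 9.85 CPM in KO1 to KO4. *Zfp605* did not overlap between genotypes, and *Zfp82* overlapped through WT2 alone. The log2 fold changes were 0.47 for *Zfp82* and 0.33 for *Zfp605*, with standard errors of 0.157 and 0.128 and adjusted p of 0.278 and 0.412 in edgeR. Of the 50-base stretches of the *Zfp82* transcript, 41.9% also occurred in transcripts of other genes, its exons overlap those of *Gm26920* on the same strand, and its counts were not whole numbers in any of the 8 libraries. The counts of *Zfp605* were whole in all 8.

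The differences of *Zfp24*, *Zfp870* and *Zfp639* were smaller. *Zfp24*, needed for myelin formation in the nervous system, had 45.3, 41.8, 45.8 and 49.1 CPM in WT1 to WT4 and 50.3, 49.8, 47.5 and 52.2 CPM in KO1 to KO4. *Zfp870*, a KRAB member, had 12.5, 11.7, 11.8 and 9.28 CPM in WT1 to WT4 and 11.8, 14.1, 13.2 and 14.6 CPM in KO1 to KO4. *Zfp639* had 54.4, 59.4, 56.1 and 62.2 CPM in WT1 to WT4 and 63.7, 64.2, 61.8 and 62.3 CPM in KO1 to KO4. In each of these 3 genes the genotypes overlapped, and the unadjusted P was 0.0448 for *Zfp24*, 0.0491 for *Zfp870* and 0.04995 for *Zfp639*. The adjusted p was 0.516, 0.537 and 0.537 in the same order.

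The members next in order of P had an unadjusted P above 0.05. On the lower side these were *Zfp292* (log2 fold change −0.09, unadjusted P 0.0526), the KRAB members *Zfp39* (−0.21, 0.0592), *Zfp788* (−0.18, 0.0802) and *Zfp65* (−0.18, 0.0916), and on the higher side *Zfp775* (0.20, 0.0539), *Zfp131* (0.11, 0.0548), *Zfp523* (0.27, 0.0584), *Zfp318* (0.13, 0.0588) and *Zfp36* (0.15, 0.0874). Of these 9 genes only *Zfp39* did not overlap between genotypes, with 12.802, 12.3, 13.5 and 12.96 CPM in WT1 to WT4 and 10.2, 11.4, 11.5 and 11.5 CPM in KO1 to KO4. Over all 216 members, the KO libraries lay wholly below the WT libraries in 3 (1.39%, beside 2.63% of all tested genes) and wholly above in 2 (0.926%, beside 2.25%), in all 2.31% of the members beside 4.89% of all tested genes.

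**Figure D2:**
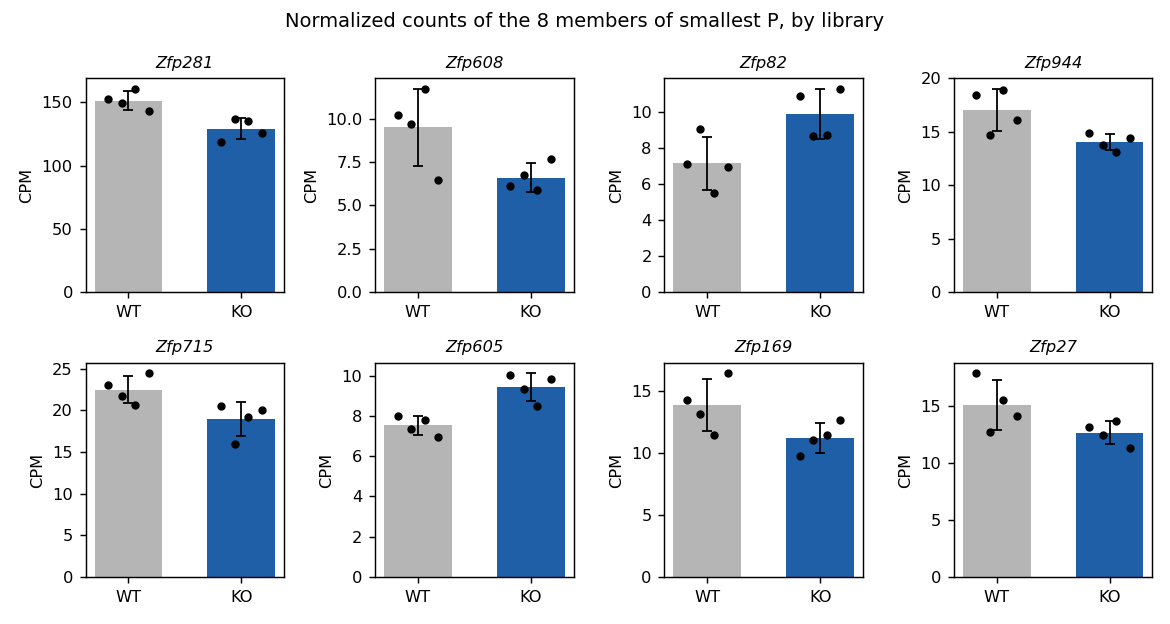
Normalized counts (CPM, y from 0) of the 8 members of smallest P in WT and KO, with bars for the mean, error bars for the SD and points for the 4 libraries of each genotype. Zfp281 and Zfp715 do not overlap between genotypes with KO lower, Zfp605 does not overlap with KO higher, and the other 5 overlap.

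Members with a KRAB motif and members without one differed in build and level, and both lay around 0 in the comparison of genotypes. By the single pattern used, a KRAB motif was found in the proteins of 101 members and none in 115. A box that departs from the pattern would be missed, so the members without a motif may include KRAB proteins. KRAB members had a median of 11 fingers and a transcript GC content of 41.2%, and the others had 8 fingers and 50.3%. *Zfp142* had the most fingers, 36. Per kb of transcript the KRAB members had a median level of 3.29 CPM and the others 8.46 CPM, over all 8 libraries. A SCAN motif, which marks a dimerization domain, was found in 4 members, again by a single pattern that can miss others. By the pattern used, 6 members had no C2H2 match, among them *Zfp36*, whose fingers are of the CCCH kind.

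The median log2 fold change was −0.01 over the KRAB members and 0.01 over the others. An unadjusted P below 0.05 was reached by 4 KRAB members lower in KO and 2 higher, and by 2 and 3 of the others. These were 5.94% of the KRAB members and 4.35% of the others, beside 9.30% of all tested genes. The 95% interval lay within 1.25-fold for 60 of 101 KRAB members and 100 of 115 others. The median standard error was 0.113 for KRAB members, whose median mean count was 190.5, and 0.0749 for the others, whose median mean count was 465.

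On the chromosomes, 53 members lay on chromosome 7 and 30 on chromosome 17, together 38.4% of the members and 12.9% of all tested genes. Among the 12 chromosomes with at least 5 members, the median log2 fold change of the members ran from −0.06 on chromosome 2 (13 members) to 0.04 on chromosome 8 (17 members). It was 0.02 on chromosome 7 and 0.003 on chromosome 17, and 4 of the 12 medians were negative. In none of the 12 did the summed CPM of the members separate the genotypes. On chromosome 7 the sums were 1382, 1354, 1322 and 1372 CPM in WT1 to WT4 and 1335, 1358, 1391 and 1364 CPM in KO1 to KO4. On chromosome 17 they were 874, 846, 813 and 880 CPM in WT1 to WT4 and 844, 866, 874 and 876 CPM in KO1 to KO4. On both chromosomes the lowest sum was that of the library labelled WT3. The members at the ends of the range on the other chromosomes had adjusted p of 0.251 or more in edgeR. On chromosome 2 they were *Zfp1009* and *Zfp968* (log2 fold changes −0.16 and 0.22), on chromosome 4 *Zfp933* and *Zfp593* (−0.11 and 0.07), on chromosome 5 *Zfp655* and *Zfp605* (−0.08 and 0.33) and on chromosome 6 *Zfp248* and *Zfp775* (−0.08 and 0.20). On chromosome 8 they were *Zfp276* and *Zfp709* (−0.10 and 0.14), on chromosome 9 *Zfp809* and *Zfp599* (−0.12 and 0.16), on chromosome 11 *Zfp39* and *Zfp830* (−0.21 and 0.06) and on chromosome 13 *Zfp169* and *Zfp131* (−0.30 and 0.11). On chromosome 15 they were *Zfp707* and *Zfp623* (−0.04 and 0.09) and on chromosome 18 *Zfp608* and *Zfp24* (−0.52 and 0.14).

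**Figure D3:**
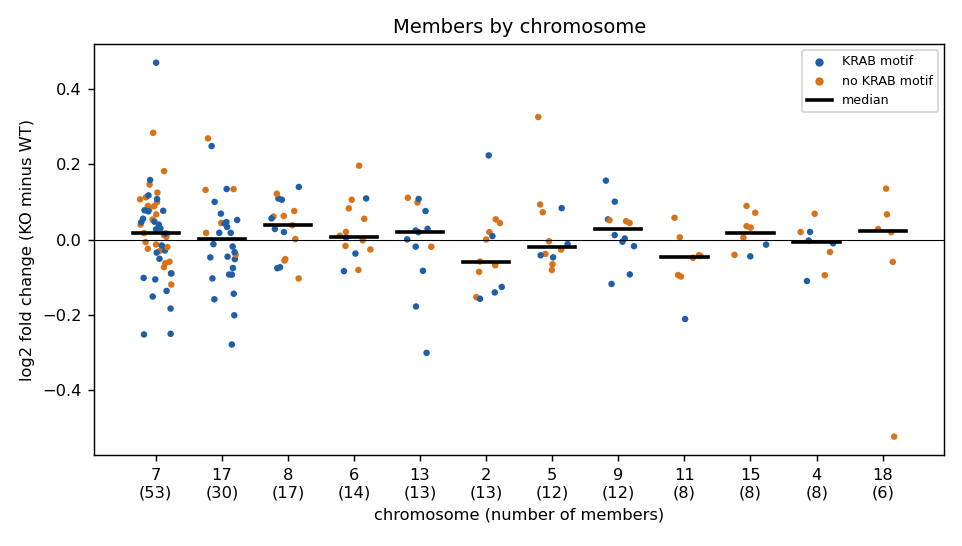
Log2 fold change of KO over WT (y) of each member on the 12 chromosomes with at least 5 members (x, with the number of members in parentheses), coloured by KRAB motif, with a bar at the median. The medians lie between −0.06 and 0.04, and single members lie on both sides of 0 on every chromosome.

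In runs of at least 3 members whose neighbouring starts lay within 1000000 bases, 126 members formed 23 physical clusters, which held 81 of the 101 KRAB members and 45 of the others. The largest was on chromosome 17 from 21229165 to 23783215, with 15 members, 13 of them KRAB members and *Zfp944* among them. Its sums were 234, 217, 228 and 224 CPM in WT1 to WT4 and 212, 221, 214 and 224 CPM in KO1 to KO4, and 10 of its 15 members were lower in KO. On chromosome 7 from 29467960 to 29869215, 11 members lay within a shorter stretch, with *Zfp82* as the highest at 0.47 and *Zfp27* as the lowest at −0.25 on the log2 fold change scale. Both were picked as the extremes of the 11, overlapped between genotypes and had adjusted p of 0.278 and 0.512 in edgeR. The median of that cluster was −0.03.

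The cluster medians ran from −0.15 to 0.11, and 11 of 23 were negative. The lowest was that of the 5 KRAB members *Zfp788*, *Zfp141*, *Zfp715*, *Zfp175* and *Zfp719* on chromosome 7 from 41282627 to 43244314. They summed to 87.6, 86.1, 80.7 and 87.2 CPM in WT1 to WT4 and to 82.6, 76.2, 70.2 and 77.7 CPM in KO1 to KO4. Only KO1 reached into the WT range, and 4 of the 5 members were lower in KO. The highest was that of *Zfp709*, *Zfp617* and *Zfp961* on chromosome 8 from 72635570 to 72767210, which summed to 53.3, 48.3, 52.0 and 53.9 CPM in WT1 to WT4 and to 56.2, 54.5, 54.9 and 54.1 CPM in KO1 to KO4. It was the only one of the 23 clusters whose sums did not overlap between genotypes, by a gap smaller than the spread of either genotype. These 2 clusters were picked as the extremes of 23, and no test was made of them.

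Among the 10 members of highest mean count, *Zfp281* was the only one with an unadjusted P below 0.05 (10%, beside 9.30% of all tested genes). *Zfp106*, an RNA-binding protein needed in motor neurons and muscle, was the most abundant, with 537.5 ± 22.7 CPM in WT and 537.6 ± 10.1 CPM in KO. Its log2 fold change was 0.00019 (SE 0.0382), so that its 95% interval ran from −0.08 to 0.08. The other 8 by mean count, *Zfp207*, *Zfp871*, *Zfp445*, *Zfp706*, *Zfp292*, *Zfp598*, *Zfp592* and *Zfp91*, had log2 fold changes from −0.09 for *Zfp292* to 0.03 for *Zfp706*. Per kb of transcript *Zfp106* again came first, at 53.8 CPM, followed by *Zfp598* at 39.97, *Zfp706* at 37.3 and *Zfp622* at 31.6 CPM. *Zfp598* encodes a ubiquitin ligase that acts on collided ribosomes, and ZFP622 takes part in the maturation of the large ribosomal subunit. The lowest level per kb was that of the KRAB member *Zfp846*, at 0.683 CPM.

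Of 40 genes listed for a known role, 35 were members. *Zfp90* and *Zfp516* had mean counts of 89.0 and 97.1, under the limit, and *Zfp57*, *Zfp462* and *Zfp683* were not among the listed genes. Of the 35, *Zfp281* was lower and *Zfp639* higher in KO at an unadjusted P below 0.05, which is 5.71% of them beside 9.30% of all tested genes. The intervals of 33 lay within 1.25-fold, and none had a fold change of 1.2 or more.

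Several of the 35 are known for roles in chromatin or imprinting. *Zfp445*, a KRAB protein that protects imprinted loci, had 165.6, 169.6, 175.7 and 181.1 CPM in WT1 to WT4 and 160.9, 172.7, 187.8 and 176.4 CPM in KO1 to KO4, a log2 fold change of 0.01 with an interval from −0.09 to 0.11. *Zfp809*, which silences retroviral DNA in stem cells, had 22.3, 20.9, 19.8 and 20.2 CPM in WT1 to WT4 and 18.2, 18.6, 17.7 and 22.1 CPM in KO1 to KO4, and KO4 alone of the KO libraries reached the WT range. The log2 fold change of *Zfp809* was −0.12 with an interval from −0.31 to 0.07. *Zfp568*, which represses a placental *Igf2* transcript, had a log2 fold change of −0.14 with an interval from −0.30 to 0.03. The differences of *Zfp638*, a partner of the HUSH silencing complex, and *Zfp410*, an activator of *Chd4*, were −0.002 and 0.01 on the log2 scale.

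Others of the 35 are known for roles in lymphocytes, mRNA control or cell division. *Zfp36*, or tristetraprolin, which brings about decay of AU-rich mRNAs such as those of cytokines, had 26.4, 22.04, 26.0 and 25.4 CPM in WT1 to WT4 and 28.4, 26.9, 29.8 and 25.6 CPM in KO1 to KO4. Of the KO libraries only KO4 lay within the WT range, and the log2 fold change of *Zfp36* was 0.15 with an unadjusted P of 0.0874. *Zfp335*, needed for T cell maturation, had 68.9, 77.5, 67.1 and 72.4 CPM in WT1 to WT4 and 64.5, 64.2, 70.9 and 69.7 CPM in KO1 to KO4, a log2 fold change of −0.09 with an interval from −0.21 to 0.04. *Zfp91*, a ubiquitin ligase of the noncanonical NF-κB pathway, had a log2 fold change of −0.07 with an interval from −0.17 to 0.03. *Zfp318*, which controls IgM and IgD transcripts in B cells, had 108.2, 99.7, 92.0 and 118.0 CPM in WT1 to WT4 and 122.3, 106.9, 108.5 and 121.2 CPM in KO1 to KO4, with the genotypes overlapping and a log2 fold change of 0.13. *Zfp143*, which binds many promoters and takes part in chromatin looping, *Zfp207*, which serves the mitotic spindle, and *Zfp326*, which couples transcription to splicing, all had log2 fold changes within 0.02 of 0.

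**Figure D4:**
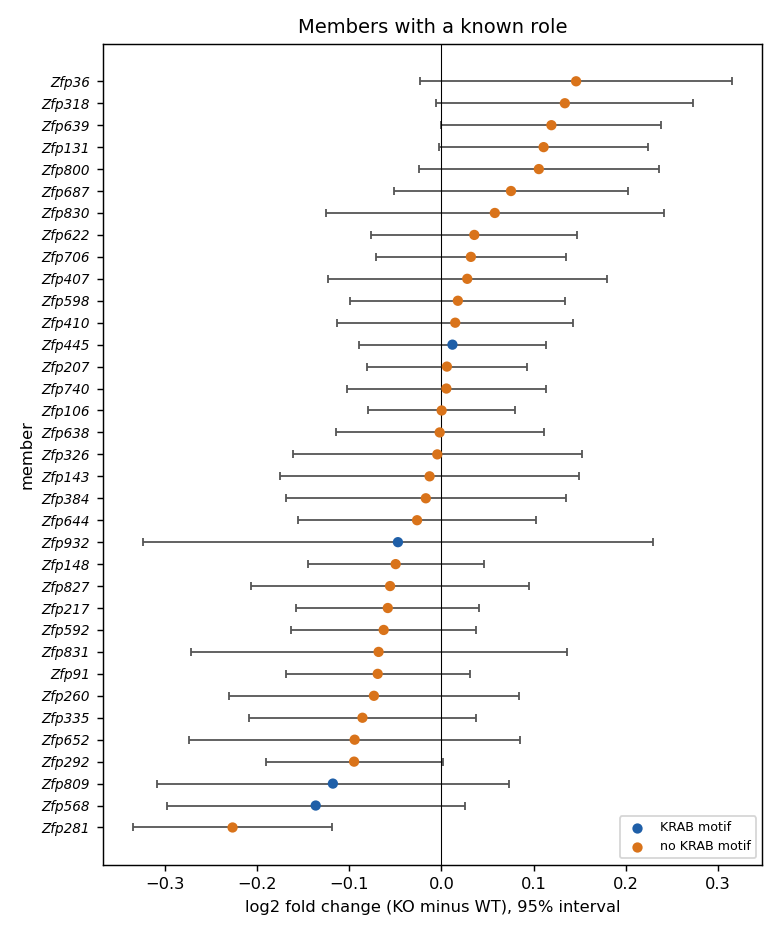
Log2 fold change of KO over WT with its 95% confidence interval (x) for the 35 members listed for a known role (y, sorted), coloured by KRAB motif. The interval of Zfp281 lies wholly below 0, from −0.34 to −0.12, and those of the others but Zfp639 cross 0.

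Reads shared with other genes, members or not, limit what some of these values can say. The E/M counting shares out reads that fit more than 1 gene, and 23.2% of the members' values were not whole numbers within 0.005, beside 33.2% of all listed values. In 84 members no 50-base stretch of the canonical transcript occurred in another gene, and in 30 members over 10% did. The largest share was 100%, in *Zfp968*, *Zfp969* and *Zfp1009* on chromosome 2. Every 50-base stretch of *Zfp969* occurred in *Zfp968* and 99.3% of those of *Zfp968* in *Zfp969*, as the identical fingers printed above show on a small scale. *Zfp268* and *Zfp984* on chromosome 4 shared 56.4% and 51.5% of theirs with each other. In *Zfp82* and *Zfp91*, which are among the 30, 0% of the stretches occurred in another member.

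For *Zfp968* and *Zfp969* the value of each gene moved far more than their sum. *Zfp968* had 10.95, 8.29, 13.9 and 9.70 CPM in WT1 to WT4 and 12.3, 6.33, 13.4 and 18.2 CPM in KO1 to KO4. *Zfp969* had 11.5, 15.3, 6.24 and 10.9 CPM in the WT libraries and 10.4, 17.99, 8.57 and 2.58 CPM in the KO libraries in the same order. Where one was high the other was low, most of all in KO2 and KO4. Their sum was 22.5, 23.6, 20.1 and 20.6 CPM in WT1 to WT4 and 22.7, 24.3, 21.9 and 20.8 CPM in KO1 to KO4. The log2 fold changes of 0.22 for *Zfp968* and −0.14 for *Zfp969*, with standard errors of 0.219 and 0.336, are therefore values of a division between like genes and are uncertain as values of either gene. These genes were looked at because of their shared sequence, after their values had been seen.

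**Figure D5:**
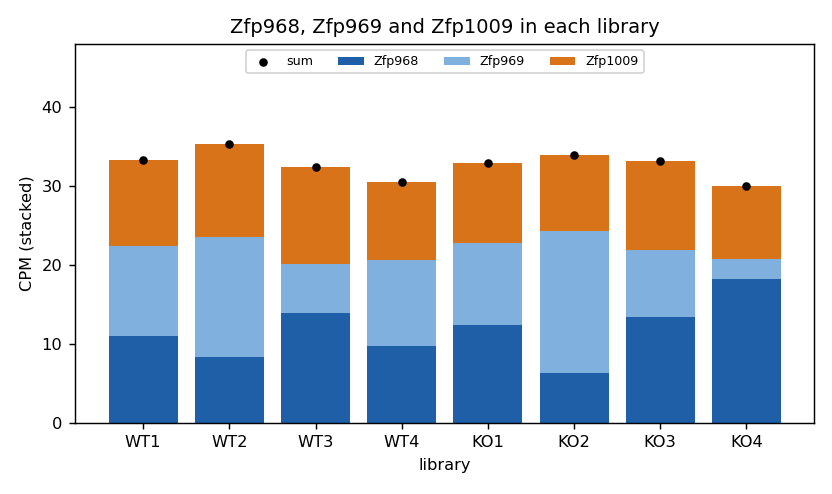
CPM of Zfp968, Zfp969 and Zfp1009 stacked for each library, with a point at their sum (y from 0). The sum lies between 30.0 and 35.4 CPM in all 8 libraries, while Zfp969 ranges from 2.58 CPM in KO4 to 17.99 CPM in KO2.

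In the members with over 10% shared stretches the median log2 fold change was 0.03, in those with none 0.002. An unadjusted P below 0.05 was reached by 1 of the 30 (3.33%) and by 4 of the 84 (4.76%), beside 9.30% of all tested genes. Exons of 125 members overlap a gene on the opposite strand and those of 26 a gene on the same strand in the annotation used.

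RNA of the genes for the proteins through which KRAB zinc fingers act was measured as well. Of 35 genes listed for the KRAB repressor machinery, with *Trim28*, *Setdb1* and the HP1 genes among them, 34 were tested and 0 had an adjusted p below 0.05. At an unadjusted P below 0.05 only *Mbd2*, a reader of methylated DNA, was lower in KO (2.94% of the 34, beside 4.91% of all tested genes), with a log2 fold change of −0.17 and an adjusted p of 0.380 in edgeR. All 34 intervals lay within 1.25-fold, and the median log2 fold change was 0.0003. Of 39 *Zbtb* genes, 1 was called at an adjusted p below 0.05, *Zbtb32*, higher in KO by 0.40 on the log2 scale with an adjusted p of 0.0384. At an unadjusted P below 0.05 there were 3 *Zbtb* genes lower and 3 higher (15.4%), 2 of 17 *Zscan* or *Zkscan* genes (11.8%), 2 of 16 *Zc3h* genes (12.5%), 1 of 28 *Zfp* names with letters after the digits (3.57%) and 2 of 59 further KRAB zinc finger genes (3.39%), beside 9.30% of all tested genes. The 95 tested Zfp-named genes under the limit of 100 counts had a median log2 fold change of 0.005 and 5 with an unadjusted P below 0.05 (5.26%), and 36 of their intervals lay within 1.5-fold. *Zfp114* had the largest difference among them, with 1.51, 1.09, 1.61 and 1.35 CPM in WT1 to WT4 and 0.363, 0.878, 0.451 and 0.883 CPM in KO1 to KO4, and an adjusted p of 0.303 in edgeR.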

How the data were processed

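The deposited table holds estimated counts per gene for 4 WT and 4 KO libraries. The authors aligned reads to GRCm39 with STAR 2.7.8a and divided multi-mapping reads by the Partek E/M algorithm before filtering, and the deposited estimated counts are not normalized. The table's start, stop and length columns gave no measurement. The annotation version and strand setting are not given in the sources used here, and the depth of the unlisted genes is unknown.

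Estimated counts were rounded, filtered with filterByExpr (minimum count 10), normalized by TMM and tested for genotype with edgeR 4.0.16 (quasi-likelihood F-test, two-sided, Benjamini-Hochberg adjustment over 11317 genes, R 4.3.3); the fit was tested on simulated data first. Standard errors and 95% intervals follow from its F statistics. Exact permutation tests enumerate the 70 arrangements of log2(CPM + 0.5). P-values measure the spread between these libraries. The methods state independent mice for fewer replicates per group than the libraries tested, so whether each library came from its own mouse is not known. DESeq2 1.42.0 and limma 3.58.1 were among 18 other settings. Medians over members are descriptions without a test. Chi-square comparison of the libraries within each genotype found no copy of a library. The value per degree of freedom was lowest for KO1 with KO4 (2.59) and WT1 with WT2 (2.70). It ran from 3.78 to 6.31 for the other pairs. Whether any libraries shared a mouse was not tested.

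Proteins translated from GENCODE vM39 canonical transcripts were searched for C2H2 fingers (Cys, 2 to 4 residues, Cys, 12, His, 3 to 5, His). The KRAB motif was Asp-Val, 3 residues, Phe, 3, Glu-Trp, 2, Leu. The SCAN motif was Phe-Arg, any residue, Phe, any, Tyr, any, Glu, 2, Gly-Pro. Domains that depart from these patterns are missed. The 50-base stretches were compared between genes. Of the 11911 gene IDs, 11910 matched that annotation, and 8 rows had no gene name. Named were the 10 members of smallest P in each direction, the 10 of highest mean count, those at the limit of 100, 40 listed for a role, the extremes of each chromosome with at least 5 members and list genes with P below 0.05. The members and lists were chosen with earlier results of these data known.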

Additional observations from a re-analysis of the deposited data

Results flagged for a closer look

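Named genes were looked over for a library that stood apart from the other 3 of its genotype, with a gap to its neighbour above Dixon's 95% critical value for 4 samples. Chance alone gives about 1 such library in 20 groups. Among the Zfp-named genes there were 8. In KO1, *Zfp39* was lowest at 10.2 CPM (others 11.4 to 11.5), *Zfp568* lowest at 26.4 CPM (others 30.2 to 30.4) and *Zfp775* highest at 20.1 CPM (others 17.4 to 17.6). *Zfp598* was lowest in KO2 at 130.7 CPM (others 136.4 to 137.5), and *Zfp976*, under the limit of 100 counts, was highest there at 1.254 CPM (others 0.676 to 0.747). *Zfp800* was lowest in KO3 at 46.5 CPM (others 52.6 to 53.7) and *Zfp825* lowest in KO4 at 6.04 CPM (others 7.58 to 7.77). In the WT libraries *Zfp106* was highest in WT4 at 571.5 CPM (others 525.3 to 527.1). Outside the Zfp names, *Zbtb7a* was highest in WT1 at 97.4 CPM (others 93.9 to 94.5). In all, 9 of 176 groups of 4 libraries stood out in this way.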

How the results depend on the processing

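The count of genes called at an adjusted p below 0.05 depended on the tool, and few members were among them. Against 30 tested genes and 0 members in edgeR, DESeq2 called 81 genes and 1 member, limma with quality weights 95 and 1, the replicate block 87 and 1, and the GC correction with replicate block 123 and 1, the member being *Zfp281* each time. With 1 library left out, or KO1 and KO4 together (chosen after seeing the data), between 3 and 162 tested genes and between 0 and 2 members were called. The 2, *Zfp281* and *Zfp608*, came without WT4, where 90 genes were called. The 162 came without KO2, with *Zfp281* alone among the members. The replicate numbers do not pair the samples (same-number correlations of −0.05, 0.005, −0.05 and 0.06), so the block is no finer test here. KO4 was the only library that correlated best with its own number.

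Of the members higher in KO at an unadjusted P below 0.05, 5 became 3 with RLE size factors, the replicate block or the GC correction, 2 with DESeq2, and between 2 and 7 with libraries left out (2 without KO1, 3 without WT1, WT2 or WT3). Only members with a mean count of at least 200 (145 genes) gave 3 lower and 2 higher. The shares of all tested genes in that fit were 4.91% and 4.38%. The count of members lower in KO, 6 as reported, ran with 1 library left out from 4 without WT1 to 9 without WT2, where 3 were higher. Of all tested genes, 3.96% were lower without WT1 and 4.28% without WT2. With both directions together, 5.56% of the members had such a P without WT2, beside 8.28% of all tested genes. The median over the members lay between −0.002 and 0.02 under the settings tried, and the number of the 12 chromosomes with a negative median, 4 as reported, between 3 (without KO1 or KO4, among others) and 6 (without KO3).

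Of 73 Zfp-named genes, 24 changed sign under some setting, none of them past the threshold in any. Leaving out libraries, log2 fold changes ran from −0.16 to 0.042 for *Zfp652*, −0.14 to 0.45 for *Zfp968*, −0.10 to 0.026 for *Zfp827*, −0.12 to 0.00031 for *Zfp831*, −0.033 to 0.10 for *Zfp830*, −0.0036 to 0.067 for *Zfp706*, −0.16 to 0.038 for *Zfp677*, −0.16 to 0.013 for *Zfp248*, −0.048 to 0.0071 for *Zfp644*, −0.16 to 0.0066 for *Zfp58*, −0.017 to 0.079 for *Zfp407*, −0.010 to 0.083 for *Zfp871*, −0.043 to 0.052 for *Zfp598*, −0.19 to 0.076 for *Zfp707*, −0.039 to 0.13 for *Zfp235*, −0.025 to 0.058 for *Zfp445*, −0.048 to 0.054 for *Zfp410*, −0.10 to 0.064 for *Zfp384*, −0.063 to 0.052 for *Zfp143*, −0.023 to 0.022 for *Zfp207*, −0.033 to 0.051 for *Zfp740*, −0.067 to 0.046 for *Zfp326*, −0.071 to 0.026 for *Zfp638* and −0.011 to 0.030 for *Zfp106*. With limma *Zfp740* was −0.014, *Zfp326* 0.0034 and *Zfp638* 0.0057. *Zfp106* was −0.00084 with RLE factors, −0.00070 without a filter, −0.00085 with DESeq2, −0.0025 with the GC correction and −0.0017 with both the GC correction and the block. The cause of these changes was not tested.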
